A study of Mus musculus with 8 samples.

Results

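Rorb, Cdh20, Ano3, Mab21l2, Col11a1 and Ddit4l are 6 of the 25906 genes counted in the bone marrow of young and old mice. They were selected on measured values, their UMI counts (unique molecular identifiers, each one captured RNA molecule), which were much higher in megakaryocytes (Mk) of old than of young mice, so every old against young value of these 6 genes in Mk is a description and carries no test. The samples were 8 droplet libraries of single cells from C57BL/6 mice, enriched for CD41+ and CD42d+ cells by magnetic and flow sorting. Each library came from the femur or the tibia of young (3 months) or old (over 24 months) females or males, which gives 4 groups of 2 libraries. The 4 libraries called femur here are labelled so, while the names of some of their deposited files give the fibula, and this was not settled. Marrow was pooled before capture, from 6 females and 6 males among the young mice and from 6 females among the old. For the old males the extraction protocol gives 5 mice and the design text 6. Both libraries of a group therefore come from bones of the same pooled mice, and p-values measure the spread between bones of a pool and not the spread between mice.

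Mk are the very large polyploid marrow cells that shed platelets. None of the 6 genes is a usual marker of Mk or platelets. Rorb encodes retinoid-related orphan receptor beta, a nuclear receptor best known from the retina and the brain, whose relative Rora acts in the circadian clock. Cdh20 encodes a type II cadherin, a cell adhesion protein. Ano3 encodes a membrane protein of the anoctamin (TMEM16) family. Mab21l2 is needed for eye development and belongs to the protein family of the DNA sensor cGAS. Col11a1 encodes a chain of type XI collagen, a fibrillar collagen of cartilage. Ddit4l encodes an inhibitor of the growth kinase complex mTORC1, as does its relative Ddit4.

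In GENCODE M21 (GRCm38), Rorb lies on the minus strand of chromosome 19 between 18930605 and 19111196, Cdh20 on the plus strand of chromosome 1 between 104768529 and 104995481, and Ano3 on the minus strand of chromosome 2 between 110655201 and 110950923. The other three lie on chromosome 3, with Mab21l2 on the minus strand between 86545581 and 86548629, Col11a1 on the plus strand between 114030540 and 114220718, and Ddit4l on the plus strand between 137621612 and 137628333. Mab21l2 lies inside Lrba on the opposite strand, which had 1277 to 12642 UMIs in the Mk of a library. Lrba did not pass the test between ages, with an old minus young log2 fold change of 0.27 (SE 0.10) and an adjusted p of 0.0926 in edgeR's quasi-likelihood test. Muc15, on the strand opposite Ano3, had 1 UMI in the Mk of all 8 libraries.

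The RefSeq promoter windows (GRCm38.p6) of the 6 genes were searched for 7 short motifs, over the 250 bases before each start and on both strands. For GATA factors, which act in Mk, the letters were AGATAA or, in a second form, TGATAA. The ETS factor motif was written CGGAAG. The motif used for RUNX factors was TGTGGT. For ROR receptors only the letters AGGTCA were searched, without regard to the bases beside them, so a match is not a shown ROR site. The clock E-box was written CACGTG, and the core promoter element was TATAAA. The motifs were chosen after the counts had been seen. Rorb and Ano3 each have 2 listed starts, which gives 8 windows. The windows printed are both of Rorb, since Rorb gave most of the UMIs of the set, and the 2 that hold AGGTCA. Its letters are in capitals and read TGACCT on the printed strand.
Rorb, outer start, chr19:19111197-19111446, minus strand: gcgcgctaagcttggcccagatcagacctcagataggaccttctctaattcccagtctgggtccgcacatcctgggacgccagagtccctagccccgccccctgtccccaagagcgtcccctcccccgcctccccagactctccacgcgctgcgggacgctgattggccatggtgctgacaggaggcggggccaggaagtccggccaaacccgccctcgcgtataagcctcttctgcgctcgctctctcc
Rorb, inner start, chr19:19001118-19001367, minus strand: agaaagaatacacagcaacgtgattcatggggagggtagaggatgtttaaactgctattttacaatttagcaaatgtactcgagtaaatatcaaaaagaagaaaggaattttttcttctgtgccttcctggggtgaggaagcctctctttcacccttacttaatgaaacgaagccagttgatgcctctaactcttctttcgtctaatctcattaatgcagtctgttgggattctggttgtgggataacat
Col11a1, chr3:114030290-114030539, plus strand: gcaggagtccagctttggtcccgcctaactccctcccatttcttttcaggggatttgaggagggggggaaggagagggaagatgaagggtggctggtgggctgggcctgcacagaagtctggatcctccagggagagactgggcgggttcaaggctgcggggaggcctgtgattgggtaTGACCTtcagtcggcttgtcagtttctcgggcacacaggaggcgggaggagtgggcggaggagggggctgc
Ddit4l, chr3:137623422-137623671, plus strand: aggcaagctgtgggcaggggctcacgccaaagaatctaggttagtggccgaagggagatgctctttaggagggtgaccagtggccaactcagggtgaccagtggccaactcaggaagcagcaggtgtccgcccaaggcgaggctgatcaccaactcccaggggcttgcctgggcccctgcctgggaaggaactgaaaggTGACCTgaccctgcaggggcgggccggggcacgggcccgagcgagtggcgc

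None of the 7 motifs was found in the Rorb windows. AGGTCA began at position -71 in Col11a1 and -51 in Ddit4l, counted back from the start, and was present in 14.0% of all 32841 promoter windows. The Mab21l2 window and the outer Ano3 window lie wholly within annotated exons of M21, so they are upstream only of the RefSeq start. The Ddit4l window and the inner windows of Rorb and Ano3 overlap no annotated exon. They too lie inside the M21 gene, so they are not upstream of its outer start. TATAAA was found in the Mab21l2 window and in 1 Ano3 window (12.4% of all windows), TGTGGT in Mab21l2 and Cdh20 (14.05%), and CACGTG in the other Ano3 window (6.02%). The GATA and ETS motifs were absent from all 8 windows. GC content was 66.0% before the outer Rorb start and 39.2% before the inner one, beside a median of 52.4% over all windows.

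Of 48290 barcodes, 23222 passed the cell filters, and 6417 of these were Mk in 5 of 30 clusters. The libraries held 20707363 to 104436964 UMIs. Cells kept ranged from 560 to 5366 and Mk from 159 (old female tibia) to 1494 (young male femur). Pairs of libraries shared at most 8 cell barcodes (0.252% of the smaller library). The median Mk had 18158 to 33393 UMIs in 7 libraries and 6146 in the old male tibia, where 492 of 1132 Mk fell in 1 cluster of cells with few UMIs.

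Rorb was the most widely detected of the 6 genes. A Rorb UMI was present in 6 of 395 Mk of the young female femur (1.52%), 8 of 436 of the young female tibia (1.83%), 17 of 1494 of the young male femur (1.14%) and 20 of 1481 of the young male tibia (1.35%). In the old libraries it was present in 74 of 266 Mk of the female femur (27.8%, 95% Wilson interval 22.8% to 33.5%), 39 of 159 of the female tibia (24.5%, 18.5% to 31.8%), 249 of 1054 of the male femur (23.6%, 21.2% to 26.3%) and 164 of 1132 of the male tibia (14.5%, 12.6% to 16.7%). The 4 old libraries all lay above the 4 young ones, and the old male tibia was the lowest of the old. Intervals here cover counting error only.

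The level of Rorb, in counts per 1000000 UMIs of the Mk of a library (CPM), was 1.68, 1.84, 1.32 and 0.664 in the young female femur, young female tibia, young male femur and young male tibia. It was 68.3 and 56.2 in the old female femur and tibia, and 39.8 and 35.1 in the old male femur and tibia. The group means were 1.76 ± 0.109 (SD, n = 2) and 62.3 ± 8.60 in young and old females, and 0.994 ± 0.467 and 37.5 ± 3.36 in young and old males. Over the 2 bones together, the old CPM was 36.6-fold that of the young in females and 38.5-fold in males.

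**Figure D1:**
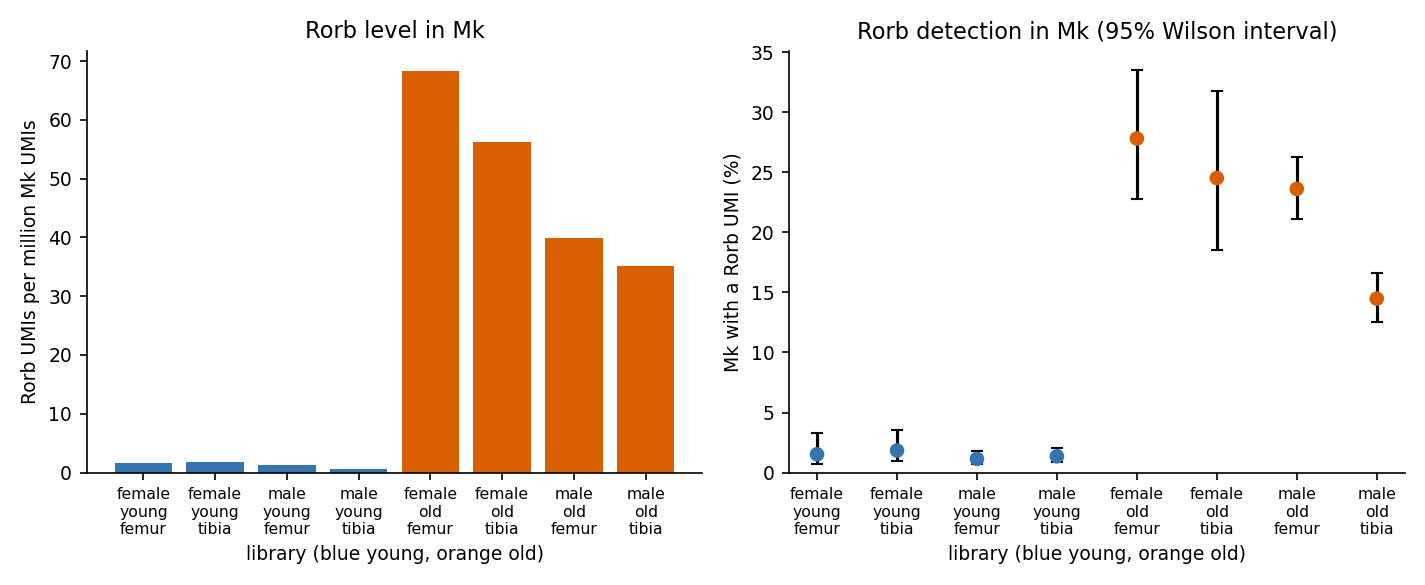
Rorb in the Mk of the 8 libraries. Left, bars give the CPM over Mk UMIs, from 0.664 in the young male tibia to 68.3 in the old female femur. Right, points give the percentage of Mk with a Rorb UMI with its 95% Wilson interval. The 4 old libraries (orange) lie above the 4 young ones (blue) in both panels.

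Old Mk differed widely among themselves in Rorb. Of the 526 old Mk with a Rorb UMI, 162 had 1 UMI and 204 had 5 or more, and the fullest cell of each library had 69, 25, 53 and 25 (female femur, female tibia, male femur, male tibia). The mean in Rorb-positive cells was 8.46, 5.97, 4.78 and 4.23 UMIs in the same order, against 1.70 to 3.76 in the young libraries. The 84 fullest cells held at least 50% of the 2744 Rorb UMIs of old Mk, and the fullest single cell 2.51%.

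Depth per cell moved with detection. In Mk with 20000 to 40000 UMIs, Rorb was present in 44.4% and 51.3% of cells in the old female femur and tibia and in 25.8% and 23.7% in the old male femur and tibia, against 0.557% to 2.41% in the young libraries. In Mk with 5000 to 20000 UMIs, the old libraries gave 18.2% to 29.2% and the young ones 0% to 3.64%. Under 5000 UMIs the old libraries gave 0% to 7.69% and no young Mk held a Rorb UMI. In Mk with 40000 UMIs or more the old male femur and tibia gave 25.8% and 25.9%, so the low overall share of the tibia was not seen among its deep cells. With every Mk thinned to 2000 UMIs, the shares were 10.4%, 4.92%, 6.85% and 7.18% in the 4 old libraries and 0.139% to 0.631% in the young, after leaving out 74, 37, 18 and 450 old Mk and 42 to 172 young Mk per library that were shallower.

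Cdh20 was found in few cells, several of which held many UMIs. The CPM was 0.990 and 0.263 in the young female femur and tibia, 0.166 and 0.293 in the young male femur and tibia, 2.84 and 6.51 in the old female femur and tibia, and 4.31 and 3.74 in the old male femur and tibia. The old libraries did not overlap the young ones. Detection in old Mk was 1.86% to 3.42% of cells, with 3.52 to 6.75 UMIs per positive cell, and 3 cells held 92.3% and 96.3% of the UMIs in the old female femur and tibia.

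Mab21l2 had the opposite pattern, with more cells and mostly 1 UMI in each. It was found in 1 of 395, 1 of 436, 2 of 1494 and 0 of 1481 young Mk (with the limit for a count of 0 set at 3 cells, the last allows a share of up to 0.203%), and in 14 of 266, 7 of 159, 49 of 1054 and 24 of 1132 old Mk, in the order female femur, female tibia, male femur, male tibia. The old levels were 2.29, 2.17, 2.17 and 2.33 CPM, the closest set among the 6 genes. Of 94 positive old Mk, 74 held 1 UMI. In the old male tibia 1 cell held 17 of 46 UMIs, and the level without it was 1.47 CPM.

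Col11a1 was spread over cells in a similar way. It was found in 0, 1, 7 and 3 young Mk and in 6, 5, 56 and 16 old Mk in the same order, and the old levels were 1.86, 1.45, 3.21 and 1.52 CPM against 0 to 0.228 CPM in the young. The share was highest in the old male femur (5.31%) and lowest in the old male tibia (1.41%). Outside Mk, 52 of the 97 Col11a1 UMIs of the young libraries came from 1 unnamed cluster of 386 cells, led by the endothelial and stromal list (10 of 10 markers raised, median 1888 UMIs).

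Ano3 and Ddit4l rested on very few cells. Ano3 had 112, 0, 39 and 35 UMIs in the old Mk of the female femur, female tibia, male femur and male tibia, from 6, 0, 9 and 9 cells. A single cell held 87 of the 112 UMIs of the old female femur, and the level there was 12.2 CPM with it and 2.74 CPM without it. The old and young libraries overlapped, since the old female tibia had no Ano3 UMI in 159 Mk, which allows a share of up to 1.89%. Ddit4l had 9, 1, 48 and 10 UMIs in 3, 1, 9 and 4 old Mk, and 1 cell held 31 of the 48 in the old male femur. That cell, with 6428 UMIs, lay in the low-UMI Mk cluster led by Ighm, Igkc, Cd74 and Ppbp. Without it the Ddit4l level of the old male femur fell from 1.61 to 0.569 CPM.

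On the log2 scale of the edgeR fit to all genes, the old minus young value (mean of the sexes) was 5.17 for Rorb, 3.44 for Cdh20, 4.69 for Ano3, 5.23 for Mab21l2, 4.51 for Col11a1 and 3.63 for Ddit4l, given with no test. All 6 passed the filter on low counts of that fit, through the old libraries in which they were high. Without the old female femur the Ano3 value was -0.50. For 5 of the 6 genes, all but Ano3, every old library lay above every young library in CPM, as did 7.13% of the 13679 genes tested. The sums of young counts behind these values were small. Only 1 to 3 UMIs were counted in a sex for Mab21l2 in both sexes and for Ano3, Col11a1 and Ddit4l in females. In males the fold of Mab21l2 was 74.1, with a 95% counting interval of 24.7 to 365.

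**Figure D2:**
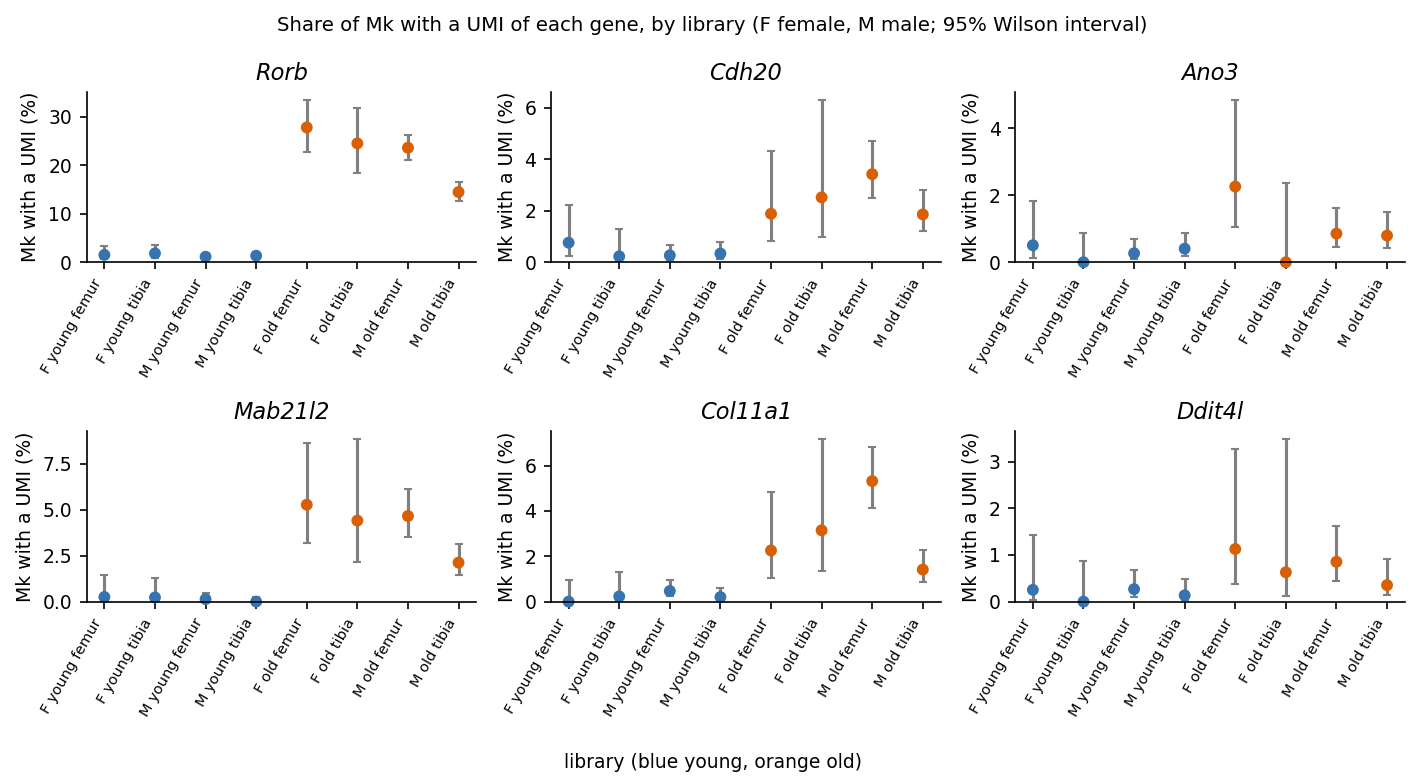
Percentage of Mk with at least 1 UMI of each gene in each library, with 95% Wilson intervals and a separate vertical scale per gene. Old libraries (orange) exceed young ones (blue) for all genes except Ano3, which was not found in the old female tibia.

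**Figure D3:**
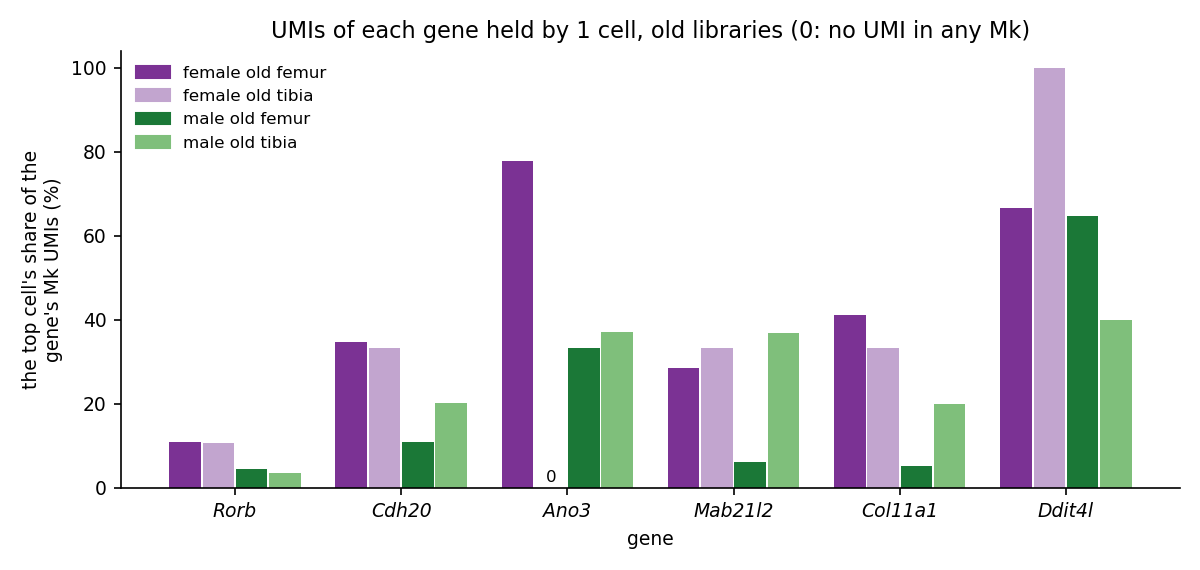
Share of each gene's Mk UMIs that came from the single fullest cell of each old library. The share was 3.60% to 11.0% for Rorb, 77.7% for Ano3 in the old female femur and 64.6% for Ddit4l in the old male femur.

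Whether males and females differed within the old libraries was not used to select the genes and was tested. Rorb was lower in old males than in old females by a log2 fold change of -0.67 (SE 0.18, adjusted p = 0.0456, edgeR quasi-likelihood test), with both male libraries under both female ones. It was the single member called of 6 tested, and 8.66% of all genes were called in this comparison. The call was lost in 9 of 17 alternatives. Stricter cell filters gave an adjusted p of 0.0807 and upper-quartile scaling 0.0521. Leaving out the old female femur gave -0.48 (adjusted p = 0.235), leaving out the old male tibia -0.64 (0.162), the old female tibia -0.85 (0.0883) and the old male femur -0.73 (0.0509), leaving out either young female library gave adjusted p of 0.0511 and 0.0529, and thinning every cell to 2000 UMIs gave -0.19 (0.817). The adjusted p ranged from 0.00301 to 0.817 over the alternatives. Ano3 had the largest other difference, -2.09 (SE 0.95, adjusted p = 0.171). It turned positive under stricter cell filters (2.48, adjusted p = 0.140) and without the old female femur, where the female library left holds no Ano3 UMI and the fitted value depends on the prior count. It passed the threshold without the old female tibia (-2.98, adjusted p = 0.0333) and with no filter on low counts (0.0236).

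The change with age in males minus that in females was 0.18 (log2, SE 0.40) for Rorb. This comparison is built from the old and young counts that chose the 6 genes, so no test is given for them, and nothing is read from the 5.22% of all genes that were called. The Rorb value was -0.23 without the young male tibia and 1.05 with cells thinned to 2000 UMIs. Between tibia and femur, with the pool as a term, Rorb differed by -0.29 (adjusted p = 0.969) and none of the 4 members that passed the filter was called. In that comparison 0.0% of 13045 genes were called by edgeR (532 at an unadjusted p under 0.05), and DESeq2 called 3. Ano3 and Ddit4l did not pass its filter.

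Beyond Mk, Rorb was also found in cells with stem and progenitor genes. A cluster of 317 cells was named HSC/MPP-like (hematopoietic stem cell or multipotent progenitor), since 8 of 10 markers on that list, among them Hlf and Mecom, were over 1.5-fold higher than in clusters led by other lists. Other leading genes were Il1rapl2, Kcnb2, Chrm3 and Magi2. A Rorb UMI was present in 16 of 26 of these cells in the old female femur, 4 of 6 in the old female tibia, 70 of 140 in the old male femur and 35 of 96 in the old male tibia. In the young libraries it was present in 0 of 1, 0 of 3, 3 of 32 and 0 of 13 (female femur, female tibia, male femur, male tibia). A fit of old against young in these cells was not run, since the young female libraries held too few.

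In all 4 old libraries the Rorb level was higher in HSC/MPP-like cells than in Mk. It was 231, 176, 170 and 116 CPM in HSC/MPP-like cells of the female femur, female tibia, male femur and male tibia, a mean of 173 ± 47.2 (SD, n = 4) against 49.9 ± 15.3 in Mk. Mab21l2 was also higher in HSC/MPP-like cells in 4 of 4 libraries, with 26.3, 41.5, 15.7 and 4.24 CPM and a mean of 21.9 ± 15.8 against 2.24 ± 0.0804 in Mk. The old female tibia values rest on 6 HSC/MPP-like cells. The exact paired permutation test over 4 libraries (two-sided) gave p = 0.125 for each, the smallest value it can give with 4 pairs, and 0.25 after adjustment over 6 genes. The femur and tibia of a sex come from the same pooled mice, so the 4 pairs are not independent. The test therefore cannot decide the question. Cdh20 and Ano3 had no UMI in the 268 old HSC/MPP-like cells, which allows a share of up to 1.12%.

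Other named cell types held little Rorb. A UMI was present in 3 of 976 old neutrophils (0.307%, median 8322 UMIs per cell), 2 of 1439 old B cells (0.139%), 0 of 132 old monocytes and 0 of 536 old macrophages, against 526 of 2611 old Mk (20.1%, median 19426 UMIs). The shares were higher in 2 types with few old cells, with 2 of 52 granulocyte-monocyte progenitor-like cells (3.85%, interval 1.06% to 13.0%, 4.24 CPM) and 2 of 163 basophil- and mast cell-like cells (1.23%, interval 0.337% to 4.36%, 3.73 CPM). Of all Rorb UMIs of the old libraries, 61.8% were in Mk, 13.7% in HSC/MPP-like cells, 14.0% in 2 further clusters led by the Mk marker list that the naming rule left unnamed, and 9.92% in barcodes that did not pass the cell filters. Over both unnamed clusters, 79 of 407 old cells held Rorb (19.4%) against 2 of 1316 young cells. By library, the shares in the first of them were 34.4% and 32.0% in old females and 2.63% and 0% in old males, and in the second 31.8%, 28.2%, 9.41% and 10.0%. In the same order, the first held 61, 50, 76 and 23 old cells and the second 63, 39, 85 and 10. The values of the old male tibia thus rest on very few cells.

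Within the 5 Mk clusters, Rorb was most frequent in cluster 10, led by Il1rapl2, Chrm3, Phactr1, Ccbe1, Magi2 and Rora. There it was present in 64.9% and 67.4% of cells of the old female femur and tibia and in 34.5% and 36.1% of the old male femur and tibia, against 6.12% to 12.5% of the 8 to 49 cells of each young library. Of the 891 cells of the cluster, 782 came from old libraries. In the mitotic cluster, led by histone genes, Ube2c and Mki67, the old shares were 41.5%, 26.7%, 25.9% and 21.9% and the young ones 1.88% to 3.55%. In cluster 0, led by ribosomal protein genes, they were 29.5%, 19.2%, 9.77% and 3.68% against 0.576% to 1.26%. The low-UMI cluster, led by Ighm, Igkc, Cd74 and Ppbp with a median of 1266 UMIs, gave 0% to 2.85% in old libraries. The old libraries were above the young ones in each of the 3 deeper clusters. The gene sets that define the clusters leave out the 6 genes.

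**Figure D4:**
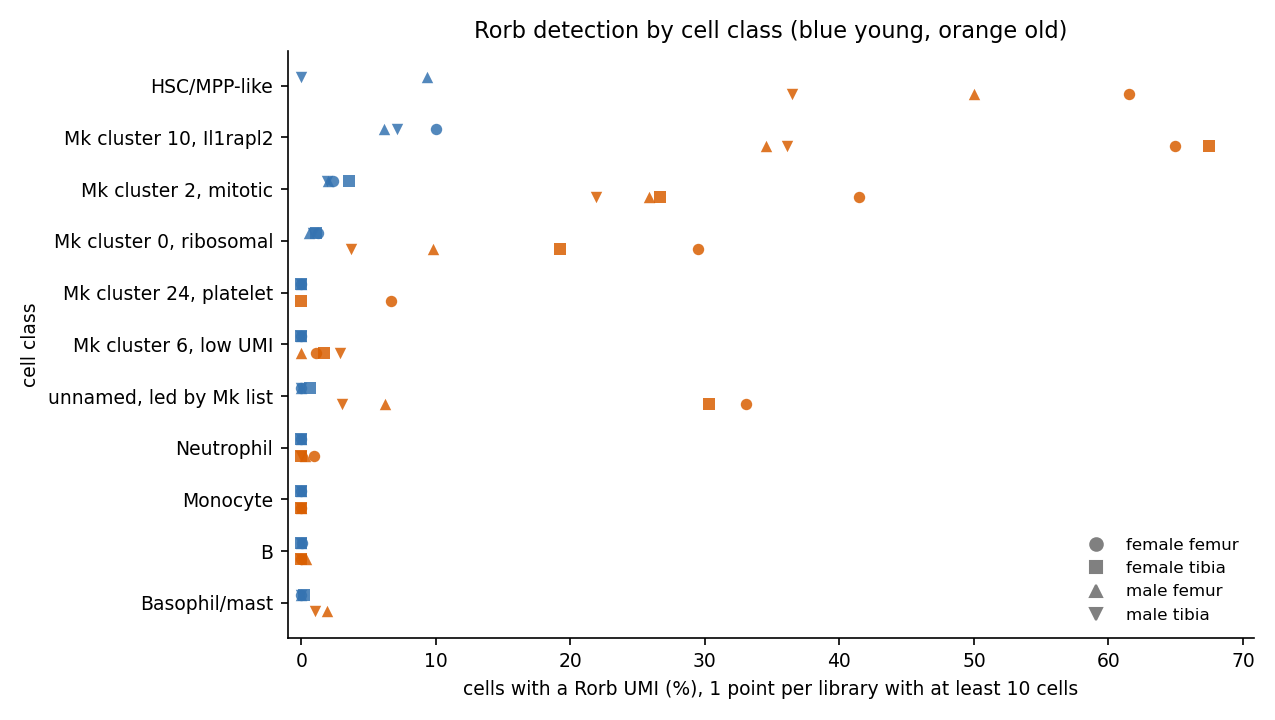
Percentage of cells with a Rorb UMI by cell class, 1 point per library with at least 10 cells (blue young, orange old; symbols give sex and bone). Old Mk of cluster 10 lie between 34.5% and 67.4% and old HSC/MPP-like cells between 36.5% and 61.5%, while neutrophils, monocytes and B cells lie at or under 0.952%.

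The other genes followed cluster 10 to different degrees. Of all 2611 old Mk, 782 were in cluster 10, and 672 were in the low-UMI cluster, where detection was low. Beside that, cluster 10 held 42 of the 66 Cdh20-positive old Mk and 16 of 24 Ano3-positive ones. It also held 62 of 83 Col11a1-positive, 49 of 94 Mab21l2-positive and 10 of 17 Ddit4l-positive old Mk. Mab21l2 was more frequent in cluster 10 than in cluster 0 in the old males (6.55% against 2.28% in the femur, 5.26% against 1.23% in the tibia) and less frequent in the old females (7.02% against 11.5%, 9.30% against 11.5%). The female shares rest on 57 against 61 cells in the femur and 43 against 26 in the tibia. Only 14 and 7 Mk of these 2 libraries held Mab21l2, too few to read a difference between the sexes. Col11a1 was more frequent in cluster 10 than in cluster 0 or the mitotic cluster in all 4 old libraries, with 8.77%, 9.30%, 10.6% and 3.86% of cells in cluster 10 against at most 2.84% in the others. Ano3 was not found in the 557 old cells of cluster 0, which allows a share of up to 0.539%.

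Old Mk with and without a Rorb UMI were compared within each old library, with the library as a term, to ask whether the other genes went with Rorb. Mab21l2 was higher in Rorb-positive Mk by a log2 fold change of 1.93 (SE 0.41, adjusted p = 0.0445, edgeR). Its level was 2.53, 5.04, 4.85 and 6.56 CPM in Rorb-positive and 2.11, 0.390, 1.26 and 0.882 CPM in Rorb-negative Mk of the female femur, female tibia, male femur and male tibia, higher in 4 of 4 libraries. Behind these levels were 10, 8, 37 and 33 Mab21l2 UMIs in Rorb-positive and 11, 1, 28 and 13 in Rorb-negative Mk. A single Rorb-positive cell of the old male tibia held 17 of the 33. Col11a1 was higher in 4 of 4 libraries by 1.27 (SE 0.33) and missed the threshold (adjusted p = 0.0754). Cdh20 gave 0.95 (SE 0.56, adjusted p = 0.330) and Ano3 -0.70 (SE 0.86, adjusted p = 0.660), and Ddit4l did not pass the filter. Of 4 members, 1 was thus called, beside 3.04% of the 11403 genes tested (1.97% higher and 1.07% lower). Mab21l2 and Col11a1 passed the filter on low counts of this fit through the Rorb-positive sums, in which they were high. Their adjusted p and the count of members called carry that limit. The Mab21l2 call was lost without the old male femur (adjusted p = 0.186), without the old male tibia (0.193), without the 5% of cells with the highest doublet scores (0.0701), with the 6 genes among the clustering genes (0.0540) and with no library term (0.115).

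Rorb-positive old Mk were deeper cells. Their median UMI count was 44762, 34284, 28002 and 26162 in the 4 old libraries in the same order, against 5990, 4309, 25325 and 2737 in Rorb-negative Mk. They also fell in different clusters. Cluster 10 held 50.0%, 74.4%, 55.0% and 62.8% of Rorb-positive and 10.4%, 11.7%, 32.3% and 18.8% of Rorb-negative Mk. The low-UMI cluster held 1.35%, 2.56%, 0% and 8.54% of Rorb-positive and 47.4%, 48.3%, 3.60% and 49.4% of Rorb-negative Mk. Median mitochondrial shares were 5.10%, 8.16%, 3.65% and 3.57% in Rorb-positive and 2.96%, 2.70%, 3.17% and 3.97% in Rorb-negative Mk. The part of depth and cluster in the differences was not tested beyond the refits named here. Within the mitotic cluster alone, 19 genes were called and Mab21l2 did not pass the filter.

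**Figure D5:**
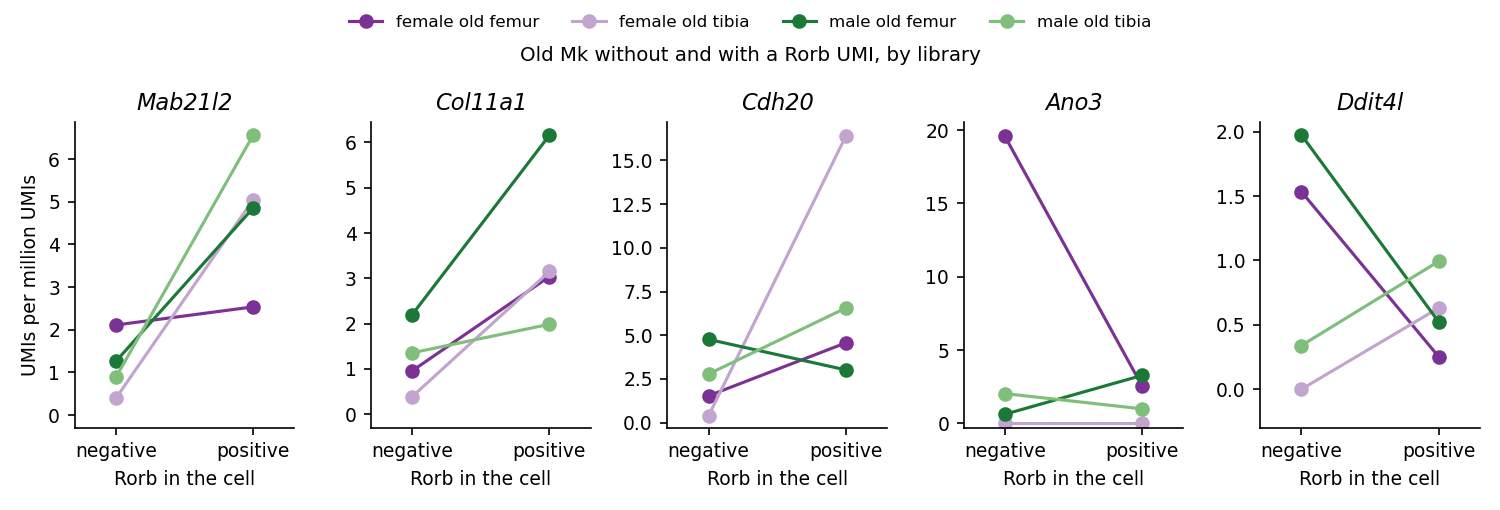
Level of the other 5 genes in old Mk without and with a Rorb UMI, 1 line per old library, in CPM over the UMIs of those cells. Mab21l2 is higher with Rorb in all 4 libraries and was called (adjusted p = 0.0445, edgeR). Col11a1 is higher in all 4 and was not called (0.0754). Both passed the filter on low counts through the Rorb-positive sums, in which they were high. The Mab21l2 call was lost in 5 of 12 alternatives. Cdh20 is higher in 3 libraries, and Ano3 and Ddit4l differ in both directions. In the old male tibia, 1 cell held 17 of the 33 Mab21l2 UMIs of Rorb-positive Mk.

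The genes outside the set that were highest in Rorb-positive old Mk, with the same sign in all 4 libraries, were Luzp2 (log2 fold change 2.44), Kcnb2 (2.23), Nckap5 (2.13), Tdrd9 (1.83), Mmp16 (1.82), Dsg2 (1.78), Col18a1 (1.78) and Agtr1a (1.75), with adjusted p of 0.00441 to 0.0342 in edgeR. Each of these calls except that of Col18a1 was lost without the old male femur, the old male tibia or the old female femur, with adjusted p of 0.0528 to 0.157, and all 8 were lost with no library term. Kcnb2 encodes a voltage-gated potassium channel, Mmp16 a membrane-bound matrix metalloproteinase, Dsg2 a desmosomal cadherin, Col18a1 the chain of basement membrane collagen XVIII, and Agtr1a an angiotensin II receptor. Kcnb2 was also among the leading genes of the HSC/MPP-like cluster. Luzp2, Kcnb2, Tdrd9, Mmp16, Dsg2 and Agtr1a passed the filter on low counts only with the Rorb-positive sums, in which they were high. Agtr1a had 3.15 to 3.97 CPM in those sums and 0.767 to 1.17 CPM in the Rorb-negative ones. The adjusted p of these genes carry that limit. Of the genes that fell, 3 were named after their values were seen. Gp6, the platelet collagen receptor, fell by 2.96 on the log2 scale, from 34.5, 27.7, 7.54 and 3.93 CPM in Rorb-negative to 3.29, 5.67, 1.57 and 0 CPM in Rorb-positive Mk. Gna14, a G protein subunit, fell by 3.44, and the sialyltransferase gene St8sia6 by 2.38. Gp6, Gna14 and St8sia6 passed the filter only with the Rorb-negative sums, in which they were high, so their calls carry the same limit. The calls of Gna14 and St8sia6 were lost without the old male femur (adjusted p = 0.0501 and 0.114), and that of St8sia6 without the old male tibia (0.0834) and with the 2 unnamed clusters added (0.0861). With no library term the calls of Gp6 and St8sia6 were lost too (0.199 and 0.157).

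With another gene of the set in place of Rorb as the one that splits old Mk, Mab21l2-positive Mk had more Cdh20 (log2 fold change 2.04, SE 0.35, with 0.26% of genes called). They were 14, 7, 49 and 24 cells in the female femur, female tibia, male femur and male tibia. Cdh20 was high in their sums, which also entered the filter on low counts, so its value is a description with no test. In that fit Rorb differed by 0.85 (SE 0.19) and missed the threshold (adjusted p = 0.112). A single cell of the old male tibia held 17 Mab21l2 and 15 Cdh20 UMIs. Cdh20-positive and Col11a1-positive Mk gave Rorb differences of 0.32 and 0.35 (adjusted p = 0.910 and 0.709, edgeR), with 0.0193% and 0.926% of genes called. In the old female femur and tibia, Cdh20-positive Mk were 5 and 4 cells and Col11a1-positive Mk 6 and 5. Such counts are too few for these fits to decide the question. Ddit4l-positive Mk differed in Rorb by 1.43 (SE 0.41, with 2.23% of genes called). They were 3, 1, 9 and 4 cells in the female femur, female tibia, male femur and male tibia, too few for a test. Counted the other way, Ddit4l had 1, 1, 4 and 5 UMIs in Rorb-positive and 8, 0, 44 and 5 in Rorb-negative Mk of these libraries. Ano3-positive Mk, which were 6, 9 and 9 cells in the 3 old libraries with Ano3, had more Ddit4l (4.83, SE 0.92, with 0.629% of genes called). Ddit4l had not passed the filter of the Rorb split. So few cells stand behind its value here that it is a description with no test.

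Pairs were also counted cell by cell. In 2611 old Mk, 1947 held none of the 6 genes, 537 held 1, 113 held 2, 9 held 3 and 5 held 4. Rorb was present with at least 1 other gene of the set in 115 Mk, where the product of the shares within each library and each of 5 equal depth bins gave 68.1, a ratio of 1.69. By library the ratio was 1.19 in the female femur, 1.81 in the female tibia, 1.78 in the male femur and 1.89 in the male tibia. The pair ratios on this scale were 1.91 for Rorb with Mab21l2 (51 cells), 1.79 with Col11a1 (39 cells), 1.58 with Cdh20 (28 cells) and 0.966 with Ano3 (6 cells). The counts given by the shares take account of library and depth and not of cluster. The part of the shared cluster in all these ratios was not tested.

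Ano3 and Ddit4l shared 7 old Mk where 0.238 were given by the shares and depth. They are 7 of the 24 Ano3-positive and of the 17 Ddit4l-positive cells, and include the cell with 87 Ano3 UMIs, which held 6 of Ddit4l and none of Rorb. They came from 3 libraries, and 6 of the 7 fell in cluster 10. Cells are not replicates, and no p is given for these counts. In 2 of the 7 the doublet score was above the 95th percentile of the library.

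Among 12380 genes with a mean of at least 1 CPM, those most like Rorb across the 8 Mk sums were Casp12, Sdc2, Gm3468, Magi2, Nbea, Phactr1, Armh4 and Clca3a1, with Pearson r of 0.983 to 0.991 on log2(CPM + 1). The 8 points fall into an old and a young cluster, so r describes little beyond that contrast, and 81 genes had r over 0.95. Casp12 had 10.4 to 11.3 CPM in the young libraries and 37.1 to 48.2 in the old, and Magi2 11.0 to 15.1 and 70.1 to 102. Magi2, Nbea and Phactr1 are also leading genes of Mk cluster 10, most of whose cells were old. The part of that cluster in these values was not tested. Within the set, r with Rorb was 0.99 for Mab21l2, 0.94 for Cdh20, 0.93 for Col11a1, 0.76 for Ddit4l and 0.64 for Ano3.

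The relatives and pathway partners of the 6 genes, which did not choose the set, were tested between old and young Mk, where 15.7% of genes were called (7.93% rose and 7.79% fell). Of the 3 related nuclear receptors reported, Rora rose and the REV-ERB genes Nr1d1 and Nr1d2 did not pass the test. Rora was called in all 17 alternatives, with a log2 fold change of 1.77 (SE 0.18, adjusted p = 0.000187, edgeR). It had 30.8 to 67.8 CPM in young and 130 to 194 CPM in old libraries after TMM scaling. Rora is also a leading gene of Mk cluster 10, which held 782 of 2611 old and 109 of 3806 young Mk. None of the alternatives held the mix of clusters fixed, and its part in this value was not tested. Of 18 circadian clock genes tested, 4 rose and 1 fell, with a list median of -0.03 beside -0.01 over all genes. These were Arntl (1.12, SE 0.18), Clock (0.56, SE 0.09), Per3 (0.65, SE 0.08) and Bhlhe41 (1.37, SE 0.21), and Csnk1e fell by 0.30.

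Of 3 type II cadherins tested besides Cdh20, Cdh11 rose by 1.20 (SE 0.28, adjusted p = 0.0186). Of 7 type I cadherins and catenins, Ctnna3, an alpha-catenin, rose by 1.94 (SE 0.22, adjusted p = 0.000401) and E-cadherin (Cdh1) fell by 2.10. None of 5 anoctamins was called, and the phospholipid scramblase Ano6 gave 0.23 (adjusted p = 0.0518) and passed the threshold in 3 of 17 alternatives (0.0176 to 0.0442). In females alone Ano6 rose by 0.43, where 15.6% of genes were called, and it gave 0.03 in males with no call. In males alone Ano4, named after its values were seen, fell by 1.35, where 8.6% of genes were called. Ano4 gave 0.83 in females with no call. The fit of the sex difference of the age change covered both genes. Its values for them are not given here, so no difference between the sexes is read. In the Mab21 family Cgas fell by 0.24 (adjusted p = 0.0496), while Mab21l1 and Mab21l3 had at most 9 and 2 UMIs in a library. Col1a2 rose by 0.88 (SE 0.14) among 3 fibrillar collagens, by 1.46 in males and 0.30 in females, and Col11a2 gave -0.28 (adjusted p = 0.635). Of 18 mTORC1 regulators, Ddit4 rose by 0.70 (SE 0.17, adjusted p = 0.0211) and Sesn3 fell by 0.34. Within each sex alone, Rora, Per3, Bhlhe41 and Ctnna3 were called in both sexes. Arntl, Clock and Cdh11 were called in females only, Col1a2, Ddit4, Sesn3 and Csnk1e in males only, and Cdh1 and Cgas in neither. Some list genes not called in the mean of the sexes were called in a single sex and named after their values were seen. Npas2 fell in males (-0.95), and Csnk1d (0.40) and Fnip2 (0.48) rose in females. Arntl, Clock, Cdh11, Col1a2, Ddit4, Sesn3 and Csnk1e had the same sign in both sexes, while Npas2, Csnk1d and Fnip2 did not. The sex difference of the age change is not given for any of these genes, so no difference between the sexes is read. The calls of Cgas, Cdh1 and Sesn3 were lost in 15 of 17, 11 of 16 and 11 of 17 alternatives, and those of Cdh11, Ddit4 and Csnk1e in 5 each. Those of Cdh11 had adjusted p of 0.0543 to 0.0805 without the young female tibia, the old female femur, either young male library or the old male femur, and those of Ddit4 0.0548 to 0.0808 without the young female tibia, either old female library or the young male femur. That of Csnk1e was lost without the old female tibia or either young male library (0.0598 to 0.0867) and with the 2 unnamed clusters added (0.0902). Thinning every cell to 2000 UMIs ended the calls of Csnk1e (0.214), Ddit4 (0.301), Clock (0.164) and Col1a2 (0.398).

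Markers of tissues in which some of the 6 genes are best known were summed in the Mk of each library. Summed over 12 markers of neurons and retina, the Mk of each library held 1.10 to 1.45 CPM in old and 0.918 to 4.81 CPM in young libraries, and Nefl was at 0 in all 8. Summed over 12 markers of cartilage and bone, old Mk held 74.7 to 91.0 CPM and young Mk 76.8 to 130 CPM, with Acan and Dmp1 at 0 in all 8. The 10 skeletal muscle markers gave 2.84 to 5.97 CPM in old and 3.76 to 5.09 CPM in young libraries. Of the marker lists of marrow cells, the 10 HSC/MPP markers summed to 2028 to 2418 CPM in old and 1639 to 1998 CPM in young Mk, with no overlap, and Procr was at 0 in 3 libraries. The erythroid list (13.9 to 15.4 against 22.7 to 68.9 CPM) and the T and NK cell list (79.6 to 120 against 122 to 160 CPM) were lower in every old library. Only 3 to 6 of the 8 T and NK cell genes had counts in a library, and Cd3e and Gzma were at 0 in all 8. Nkg7 of that list was also a leading gene of Mk cluster 0. Meis1 of the HSC/MPP list was a leading gene of Mk clusters 0 and 10 and of the mitotic cluster, and Mecom of cluster 10. The HSC/MPP sum thus includes genes that lead Mk clusters. The remaining lists of marrow cells overlapped between old and young libraries. The part of these old and young list differences in the values of the 6 genes was not tested.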

How the data were processed

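The authors made UMI count matrices with Cell Ranger 7.2.0, one for each of 8 libraries, and deposited them as raw counts per gene and barcode. The submitters' processing notes name both mm10 and GRCm39, and 804 of the 25461 gene IDs shared with GENCODE M21 carry another symbol there, so positions are those of M21 (GRCm38), matched by gene ID. Whether intronic reads were counted is not given in the sources used here.

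Barcodes with 500 to 12000 genes and at most 15% mitochondrial UMIs were kept (48.1%). Seurat 5.3.0 clustered log-normalised counts (2000 variable genes without the 6 members, 30 components, 20 neighbours, resolution 0.8). Clusters were named from marker lists, by a rule whose details were settled once clusters were known, and Mk were the 5 named clusters. Scrublet (scanpy 1.11.5) called 169 doublets (0.728%), and none in the old male tibia; called doublets were kept in the main analysis and removed in an alternative. The quasi-likelihood test of edgeR 4.0.16, after filterByExpr and TMM scaling, was run on counts summed per library (Benjamini-Hochberg over all genes, threshold 0.05), on all 8 libraries by group, with the pool as a term between bones and the library as a term between Rorb-positive and Rorb-negative Mk. Alternatives used DESeq2 1.42.0, upper-quartile scaling, no filter, other cell filters, thinning to 2000 UMIs and each library left out. Pipelines were tested on simulated data. The 6 genes and the gene lists were chosen with earlier results of these data known. One listed gene is not reported here. Genes were named if they were members, close relatives, called list genes, the 8 most like Rorb or the 8 highest in Rorb-positive Mk.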

Additional observations from a re-analysis of the deposited data

Results flagged for a closer look

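Ano3 in the old female femur stood apart from the other 3 old libraries, at 12.2 CPM against 0 to 1.77, a gap of 0.855 of the range where 0.829 is the limit for 4 samples. A single cell of cluster 10 with 20175 UMIs and 10.9% mitochondrial UMIs held 87 of the 112 UMIs, and the library had 2.74 CPM without it. Cdh20 in the young female femur stood apart from the other 3 young libraries, at 0.990 CPM against 0.166 to 0.293, with 10 UMIs in 3 cells of which 1 held 8. Such a rule marks about 1 in 20 groups by chance, and 24 groups of values were looked at. Rorb was also counted in barcodes that did not pass the cell filters, at 16.3, 6.80, 14.3 and 17.1 CPM in the old female femur, female tibia, male femur and male tibia, against 0 to 0.694 CPM in the young libraries. The source of these UMIs was not tested.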

How the results depend on the processing

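Thinning each Mk to 2000 UMIs left 388 genes called between old males and females (1185 in the main analysis), 235 for the sex difference of the age change (714), 23 between bones (0), 105 between Rorb-positive and Rorb-negative Mk (347) and 633 between old and young (2150), and gave a mean Rorb share of 7.34% in place of 22.6%. No filter on low counts gave 2170, 1614, 13 and 965 for the first 4 of these. Adding the 2 unnamed clusters, chosen after seeing the data, gave 4280, 1688 and 567 between old sexes, for the sex difference and for the Rorb split. DESeq2 gave 1181 for the sex difference and 3 between bones. With no replicate block (library left out of the model) 12 genes were called between Rorb-positive and Rorb-negative Mk, and 19 within the mitotic cluster alone, an alternative added after seeing the data. Splitting by Cdh20, Ano3, Mab21l2, Col11a1 or Ddit4l called 2, 71, 27, 97 and 224 genes. Leaving out 1 library gave 176 (without the old female tibia) to 2217 (without the old male femur) between old sexes, 73 to 1704 (the same libraries) for the sex difference, 0 to 2 between bones, 33 (without the old male femur) to 1003 (without the old female tibia) for the Rorb split, 1094 (without the young male tibia) to 2396 between ages, a Rorb share of 20.9% to 25.3% and a co-detection ratio of 1.60 to 1.81. Sign changes were Ano3 between old sexes (2.48 with stricter cell filters, and -2.98 to 8.27 over single libraries left out), Ano3 between ages (-0.50 to 6.84, likewise), and Rorb in the sex difference (-0.23 to 0.73, likewise). The causes were not tested. Replicate numbers only follow the bone: deviations from the group means correlated at -0.19 to 0.28 between femur libraries, so the bones do not pair the groups. With bone as a replicate block, 949, 536 and 1932 genes were called between old sexes, for the sex difference and between ages, and the call of Rorb held (adjusted p = 0.0382). The planned fit in HSC/MPP-like cells was not run, for want of cells in young females. Few cells and UMIs limit Ano3 and Ddit4l most.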
